A study of Mus musculus with 30 samples.

Results

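The mitosis genes described here are 48 genes whose products carry a cell from the end of G2 through chromosome segregation to the separation of the daughter cells. They were chosen by name, with earlier results of these data known. Each has a row in all 30 libraries, among 25520 gene symbols in the untreated cells and 25410 in the hormone experiment. By function they fall into 8 groups: the CDK1 engine, chromosome condensation, the kinetochore, the spindle checkpoint, the chromosomal passenger complex, the spindle, the anaphase trigger, and the midzone with cytokinesis.

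The cells are IDG-SW3, 1 mouse bone cell line that was isolated to follow the passage from late osteoblast to osteocyte in culture. The line carries a temperature-sensitive viral large T antigen under an interferon-inducible promoter, and a green fluorescent reporter under the Dmp1 promoter. It is expanded at a lower temperature with interferon-gamma and differentiated at a higher one without it, in medium holding ascorbic acid and β-glycerol phosphate. This was so in all groups, so withdrawal of the immortalizing signal and differentiation run together in every comparison of days and cannot be told apart. Untreated cells were collected at 3 days and then weekly from day 7 to day 35 (days 14, 21 and 28 between), with 3 libraries for each of the 6 days (18 in all). In the hormone experiment, cells at day 3 or day 35 were given either ethanol as vehicle or 1,25(OH)2D3 (calcitriol, the active vitamin D hormone) at 100 nM, for 24 hours before harvest, with 3 libraries in each of the 4 groups (12 in all). The replicates are described as biological but all come from the 1 line, so p-values measure the spread between libraries of that line. In the untreated cells, replicate 1 of each day came from another sequencing run than the other libraries of that day. Their spread therefore holds run as well as culture.

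Entry into mitosis is driven by CDK1 bound to A- and B-type cyclins, which starts chromosome condensation, spindle assembly and breakdown of the nuclear envelope. The spindle checkpoint holds the cell until every kinetochore is attached. The anaphase-promoting complex with its activator Cdc20 then destroys securin and cyclin B, separase opens the cohesin rings, and a contractile ring divides the cell. Transcripts of these genes accumulate in G2 and M phase under the MMB-FOXM1 activator and are held down in resting cells by the DREAM complex, both of which meet the promoter at a short element called the CHR. Such transcripts are therefore widely used as a measure of dividing cells, and osteoblast precursors divide while osteocytes embedded in matrix do not.

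The 6 promoters below belong to members that the results turn on: Cdk1, the kinase of mitotic entry; Top2a and Mki67, of high level; Cdc20, the anaphase activator; Kif11, read very differently by both experiments; and Bub3, which kept the highest share of its day 3 level. Each is the 150 bases before the annotated start in RefSeq (GRCm38.p6), written 5′ to 3′ on the strand of the gene. Capitals mark the CHR core TTTGAA or its complement TTCAAA, and the CCAAT box or its complement ATTGG.
Cdk1 (chr10:69352913-69353062, minus strand): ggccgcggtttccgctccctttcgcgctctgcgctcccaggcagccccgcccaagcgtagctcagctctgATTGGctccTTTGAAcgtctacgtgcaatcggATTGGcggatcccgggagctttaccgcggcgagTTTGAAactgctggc
Top2a (chr11:99024190-99024339, minus strand): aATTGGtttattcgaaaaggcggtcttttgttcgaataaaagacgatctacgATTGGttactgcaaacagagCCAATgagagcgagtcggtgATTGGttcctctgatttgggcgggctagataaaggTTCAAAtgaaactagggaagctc
Mki67 (chr7:135716380-135716529, minus strand): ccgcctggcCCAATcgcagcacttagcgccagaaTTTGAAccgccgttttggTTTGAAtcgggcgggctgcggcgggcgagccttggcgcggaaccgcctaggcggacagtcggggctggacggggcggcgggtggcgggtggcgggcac
Cdc20 (chr4:118437344-118437493, minus strand): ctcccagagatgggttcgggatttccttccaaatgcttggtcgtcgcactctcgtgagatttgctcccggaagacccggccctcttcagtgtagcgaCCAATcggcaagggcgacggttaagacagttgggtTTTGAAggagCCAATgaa
Kif11 (chr19:37376232-37376381, plus strand): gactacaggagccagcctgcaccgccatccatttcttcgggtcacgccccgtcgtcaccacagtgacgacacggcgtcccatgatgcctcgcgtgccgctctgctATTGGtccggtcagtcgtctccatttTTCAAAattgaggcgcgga
Bub3 (chr7:131560220-131560369, plus strand): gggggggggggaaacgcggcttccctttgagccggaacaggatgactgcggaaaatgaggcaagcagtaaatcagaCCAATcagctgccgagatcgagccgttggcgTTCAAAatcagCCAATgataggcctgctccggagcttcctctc

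Promoters of 300 bases (250 before to 50 after the start) were found for 39 of the 48 members. The letters TTTGAA, on either strand, stood in 30 of these 39 (76.9%), against 20.2% of the 27025 gene symbols with such a promoter. CCAAT likewise stood in 30 of 39 (76.9%), against 41.1% of all. The motifs can share a letter at their ends and were counted separately. TTTNGCGC, a motif of the E2F type, stood in 3 of 39 (7.69%) against 1.57% of all, whereas it stood in 11 of 32 promoters of DNA replication genes (34.4%). TTTGAA stood in 5 of those 32 (15.6%) and CCAAT in 20 (62.5%). Of 39 promoters of further mitotic genes outside the 48, TTTGAA stood in 21 (53.8%) and CCAAT in 29 (74.4%). TTTAAA, a variant of the CHR, stood in 9 of the 39 members (23.1%) against 14.9% of all, among them Ccnb1, Cenpe and Birc5, which lack TTTGAA. These are matches of letters and not measured sites. Members with TTTGAA had a median of 9.22% of their day 3 RPKM left on day 35 (n = 30), and those without had 7.32% (n = 9).

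In the untreated cells the files give RPKM, a read count scaled to the length of the transcript and to the mapped reads of the library. Rows of ribosomal RNA took between 71.6% and 88.4% of the summed RPKM of a library, which leaves few reads for genes of low level. From the steps between low values, 1 read in a gene of 1 kilobase was worth between 0.0769 and 0.157 RPKM, a 2.04-fold range of depth over the 18 libraries. The hormone files give whole-number counts, 22062866 to 54325515 in a library. As a check of the labels, 5 of 8 osteoblast markers rose by untreated day 35, led by Ibsp (log2 change +5.49, limma adjusted p = 1.3e-10) and Bglap (+5.19, adjusted p = 2.2e-10). Of 6 osteocyte markers, none reached the level needed for a test in the untreated cells: Dmp1 read 0.314, 0.556 and 0.152 RPKM on day 35 and Sost 0.522, 0.496 and 0.072. The 6 summed to 0.601 to 1.07 RPKM on day 3 and 0.279 to 1.38 on day 35, which overlapped, so no gain was seen there. In the vehicle cells 4 of the 6 were higher at day 35, where 15.5% of all genes were. Markers of macrophages summed to 9.32 to 10.8 RPKM on day 3 and 0.959 to 1.27 on day 35, and those of endothelium to at most 0.165 in any library. The untreated fall was that of Cd14, the 1 macrophage marker tested there (−2.83), which fell in vehicle cells too (−2.64, edgeR adjusted p = 1.6e-05). The summed macrophage markers of vehicle cells nevertheless went from 11.3 to 13.1 CPM at day 3 to 27.2 to 31.2 at day 35, with Lyz2 at +2.91. In the untreated cells Ptprc and Itgam, defining markers of leukocytes and of myeloid cells, were at or near 0, at most 0.025 RPKM on days 3 and 35. Of 3 chondrocyte markers tested in the untreated cells, Col2a1 (+3.08) and Comp (+1.73) rose by day 35 and Sox9 fell (−2.03). Their list summed to 8.99 to 15.9 RPKM on day 3 and 10.6 to 15.8 on day 35. In vehicle cells the list went from 61.7 to 152 CPM at day 3 to 273 to 387 at day 35, while Sox9 again fell (−2.01). Adipocyte markers summed to 6.24 to 12.8 RPKM on day 3 and 8.95 to 13.5 on day 35, but were higher between. They summed to 16.1 to 28.8 on day 7, 9.96 to 32.1 on day 14, 23.2 to 44.6 on day 21 and 25.7 to 26.7 on day 28. Cebpa, the 1 adipocyte marker tested there, was called higher than day 3 on days 7 (+1.17), 14 (+1.11), 21 (+1.71) and 28 (+1.29), but not on day 35 (+0.08). The part of these cell type markers in the results below was not tested.

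Transcripts of the mitosis genes were high on days 3 and 7, dropped between days 7 and 14, and were lowest on day 35. The summed RPKM of the 48 genes was 286, 299 and 303 in the day 3 libraries and 274, 282 and 318 on day 7. It was 88.5, 129 and 134 on day 14, then 79.3, 74.9 and 80.7 on day 21, and 83.9, 53.1 and 72.6 on day 28. On day 35 it was 43.4, 30.2 and 23.8. Days 3 and 7 overlapped each other and no later library came near them, while days 21 and 28 overlapped and every day 35 library lay below all others. Of the 48 genes, 33 had their highest mean on day 3, 15 on day 7 and 0 later, and 47 had their lowest on day 35, the exception being Cdc25c, lowest on day 21. In RNA from whole cultures, fewer dividing cells and less of these transcripts in each cell cannot be told apart.

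**Figure D1:**
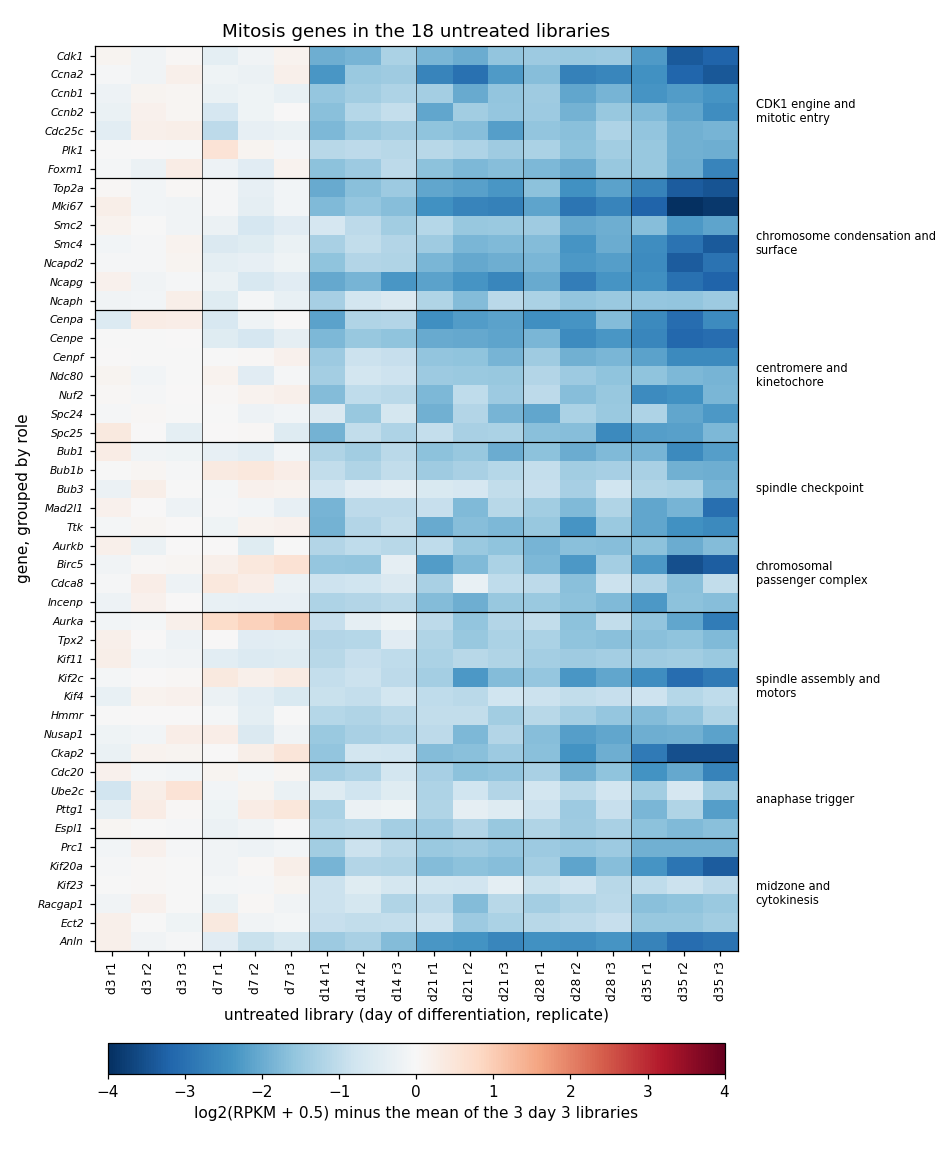
Heat map of the 48 mitosis genes (rows, grouped by role) in the 18 untreated libraries (columns, ordered by day and replicate), where colour is log2(RPKM + 0.5) minus the mean of the 3 day 3 libraries, blue below and red above it. Columns of days 3 and 7 are pale and those from day 14 on are blue, darkest in Mki67 on day 35, and Aurka on day 7 is the clearest red.

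For each gene, the mean of a day was set against its own day 3 mean. The median gene stood at 88.9% on day 7, from 54.2% for Kif11 to 194% for Aurka. It stood at 32.5% on day 14, from 17.7% for Ncapg to 71.4% for Aurka. The median was 19.4% on day 21 and again 19.4% on day 28. On day 35 it was 9.03%, from 0 for Prc1, which is listed at 0 in all 3 day 35 libraries, to 32.7% for Bub3. Most of the loss thus lay in the interval from day 7 to day 14, with little change from day 21 to day 28.

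**Figure D2:**
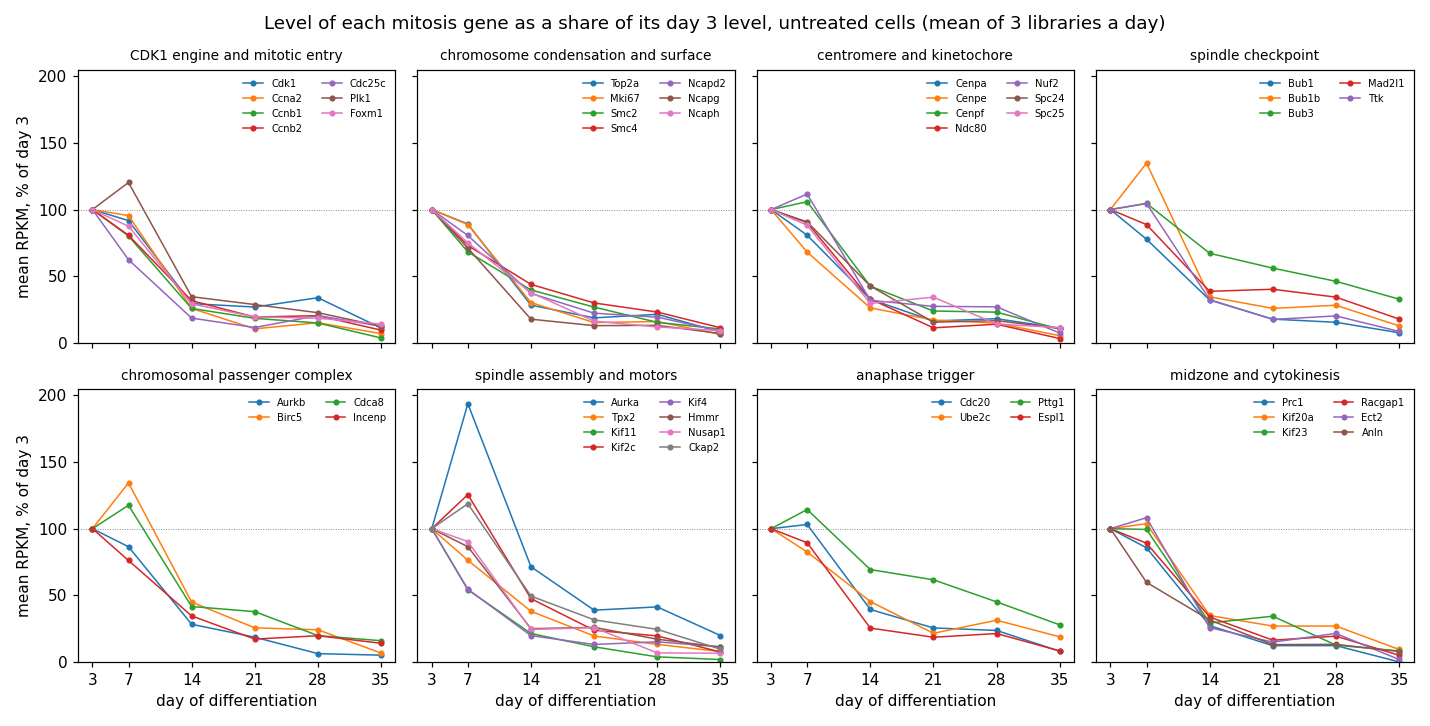
Mean RPKM as a percent of day 3 (vertical axis) by day (horizontal axis), with 1 panel for each of the 8 roles and 1 line for each gene. The lines of the roles run close together, and the outliers are Aurka, at 194% on day 7, and Bub3, at 32.7% on day 35.

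Tests were made with limma on log2(RPKM + 0.5) over the 10215 genes that reached 1 RPKM in 3 or more of the 18 libraries, and p-values were adjusted over all of them by the method of Benjamini and Hochberg with a threshold of 0.05. Fold changes on this scale understate the change of genes near the floor. Kif11, Kif4, Kif23 and Ect2 were under the filter, which left 44 members. Of these, 1 was lower on day 7 than on day 3 (10.1% of all genes were) and 1 was higher (16.4% of all genes were). On day 14, 40 of 44 were lower than on day 3, with a background of 15.6%. The counts lower than day 3 were 43 on day 21 (background 24.5%), 44 on day 28 (31.8%) and 44 on day 35 (52.1%). On these 4 days 0 members were higher, against 14.8%, 13.3%, 10.6% and 5.73% of all genes. The median log2 change of the 44 was −0.14 on day 7, −1.16 on day 14, −1.64 on day 21, −1.68 on day 28 and −2.13 on day 35. The median of all genes tested moved as well, from +0.22 on day 7 to −0.68 on day 35. With each library centred on its median, 42 members were still lower on day 35 against 22.2% of all genes, the exceptions being Cdca8 and Ube2c, and 0 were higher against 29.7%. Over all genes, centring changed the split on day 35 from 5326 lower and 585 higher to 2265 lower and 3030 higher. These 5 comparisons share the day 3 libraries. The filter bears on these counts: 22 of the 44 members reached 1 RPKM in 3 libraries of days 14 to 35, and the other 22 passed only with days 3 and 7 counted, where they are high, so that their being lower later is partly fixed by the filter. Of the 22 that pass on the later days alone, a split made after seeing the data, 19 were lower than day 3 on day 14, 21 on day 21, and 22 on days 28 and 35.

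The step from day 7 to day 14 shares no library with day 3. All 44 members had negative values in it, 35 of them past the threshold, where 2.47% of all genes were lower and 0.489% higher. The median log2 change was −1.13 for the members and −0.12 for all genes. Of the 22 that pass the filter on days 14 to 35 alone, 19 were lower. The 9 members that did not pass were Smc2, Smc4, Ncaph, Spc24, Bub3, Cdca8, Tpx2, Ube2c and Pttg1, at −0.51 to −0.89. The count was 21 without the third day 7 library and 22 without the first day 14 library, in fits where that library was left out, and 23 with a pseudocount of 0.1. Replicate 1 of every day was sequenced in a shared run, and in those libraries alone all 44 members were lower on day 14 than on day 7. Their median there was −1.33 against −0.33 for all genes.

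Later steps were small by comparison. From day 14 to day 21 Anln alone was lower (background 0.372%, and 0.284% higher). A fit that blocks on replicate number added Mki67 (−0.92), which made 2 members. The Anln call was lost without any 1 of the 6 libraries of these days, with adjusted p up to 0.18. From day 21 to day 28 limma called 0 members lower (background 0.431%) and 0 higher (background 0.861%). From day 28 to day 35, 14 members were lower (background 8.6%, and 0.176% higher), led in size by Cdk1 (−1.46, limma adjusted p = 0.0043), with Top2a, Mki67, Smc4, Ncapd2, Cenpe, Cenpf, Nuf2, Birc5, Aurka, Kif2c, Ckap2, Cdc20 and Kif20a. That last count rested on single libraries: it was 1 without the first day 28 library, 4 without the second or the third day 35 library, and 5 without the third day 28 library. It was 0 with the sequencing run as a covariate. The other 2 libraries of day 35 came from a run that held no other day, so in that fit day 35 rests on its first library. That fit therefore cannot decide the count. Within replicate 1 alone, 41 of 44 members were lower on day 35 than on day 28, with a median of −0.53 against −0.40 for all genes. Only 27 of the 44 lay below that all-gene median, so most of this fall was shared by genes at large.

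In the account of the roles, the members that changed most and least are ranked on the log2(RPKM + 0.5) scale, which limits the change of genes of low level, and the order by percent left can differ. All 7 genes of the CDK1 engine fell by day 14 and stayed lower through day 35, with a median log2 change of −2.10 on day 35. Cdk1, the kinase itself, had the highest level of the group: 17.2, 14.4 and 16.3 RPKM on day 3, 12.2, 14.3 and 17.5 on day 7, and 3.75, 4.03 and 6.30 on day 14. It read 4.17, 3.67 and 5.01 on day 21, 5.45, 5.32 and 5.45 on day 28, and 2.92, 1.12 and 1.28 on day 35. The first 2 days overlapped, each later day was apart from them, and the day 35 libraries were the 3 lowest. Its log2 change from day 3 to day 35 was −2.94 ± 0.26 (SE, n = 3 and 3, limma adjusted p = 1.3e-08). Ccna2, the A-type cyclin of S and G2 phase, changed most in the group on the log2 scale, from 6.79, 6.22 and 8.07 RPKM on day 3 to 0.898, 0.331 and 0.217 on day 35 (−2.99 ± 0.31, limma adjusted p = 8.2e-08). Cdc25c, a phosphatase that activates CDK1, changed least on that scale, from 1.48, 2.53 and 2.63 RPKM to 0.388, 0.196 and 0.239 (−1.79 ± 0.25, limma adjusted p = 3.6e-06). In both genes the day 3 and day 35 libraries were far apart. Of the B-type cyclins, Ccnb1 was left at 3.6% of its day 3 mean and Ccnb2 at 9.5%. Plk1, a kinase of entry and spindle formation, was left at 12.4%, and Foxm1, a transcription factor of this gene class, at 14.0%.

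The 7 genes of chromosome condensation and of the chromosome surface had a median change of −2.92 on day 35, and a median of 8.94% of the day 3 level left. Mki67, which encodes the Ki-67 protein that coats mitotic chromosomes, read 35.9, 28.1 and 27.1 RPKM on day 3 and 29.3, 23.3 and 28.2 on day 7. It read 8.58, 9.94 and 8.96 on day 14, 5.21, 4.37 and 4.24 on day 21, 6.57, 3.58 and 4.38 on day 28, and 2.85, 1.24 and 1.62 on day 35. Each day 14 library was below every earlier one and above every later one, and its change of −3.73 ± 0.25 (limma adjusted p = 4.4e-10) was the largest of the 44 members on the log2 scale. Top2a, the topoisomerase that untangles sister chromatids, fell from 13.1, 11.7 and 12.9 RPKM on day 3 to 1.55, 0.791 and 0.701 on day 35. Of the condensin I subunits, Ncapg was at 17.7% of day 3 on day 14, and Ncapd2 (37.1%), Ncaph (37.6%), Smc2 (39.6%) and Smc4 (43.8%) were higher. The difference between subunits was not tested. Smc4 read 18.7, 19.8 and 22.7 RPKM on day 3, 13.4, 14.4 and 16.8 on day 7, 7.99, 10.1 and 8.70 on day 14 and 3.22, 2.16 and 1.51 on day 35, so its loss was spread over the whole course. Ncaph, the kleisin of condensin I, changed least on the log2 scale (−1.52 ± 0.22, limma adjusted p = 5.6e-06), from a day 3 mean of only 1.28 RPKM, with 9.1% left.

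All 7 centromere and kinetochore genes were lower on day 14 and after, with a median of −2.26 on day 35. Cenpa, the histone H3 variant of centromeres, had the highest level, 6.76, 12.4 and 12.1 RPKM on day 3, and stood at 1.29, 0.779 and 1.36 on day 35. Cenpe, a kinesin that brings chromosomes to the spindle equator, was even over the day 3 libraries, at 5.37, 5.38 and 5.51 RPKM, and read 0.467, 0.177 and 0.223 on day 35 (−2.93 ± 0.21, limma adjusted p = 7.4e-10). Ndc80, of the complex that grips the ends of microtubules, showed the smallest log2 change (−1.75 ± 0.20, limma adjusted p = 3.8e-07), although its RPKM fell from 1.47, 1.19 and 1.29 to 0.098, 0.027 and 0, or 3.2% of day 3. The pseudocount limits the log2 change of a gene this low. The 3 partners of Ndc80 in its complex, Nuf2, Spc24 and Spc25, kept 7.3%, 10.8% and 11.4%.

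The spindle checkpoint genes also fell, but Bub3 stood apart. Mad2l1, which encodes the MAD2 inhibitor of Cdc20, had the highest level, 13.6, 12.0 and 10.3 RPKM on day 3, and read 2.88, 5.47 and 5.49 on day 14 and 2.46, 2.89 and 1.04 on day 35 (−2.31 ± 0.30, limma adjusted p = 1.6e-06). Ttk, the MPS1 kinase at the head of the checkpoint, changed most on the log2 scale (−2.34 ± 0.26, limma adjusted p = 1.9e-07). Bub3, a partner of BUB1 and BUBR1 that also has a role outside mitosis in RNA splicing, read 5.99, 8.44 and 7.02 RPKM on day 3 and 3.96, 5.04 and 5.41 on day 14, a change of −0.53 that did not pass the test (limma adjusted p = 0.09). It read 4.44, 4.22 and 3.36 on day 21, 3.50, 2.52 and 3.87 on day 28, and 2.81, 2.62 and 1.59 on day 35 (−1.45 ± 0.23, limma adjusted p = 1.9e-05). The day 35 libraries were all below the day 3 libraries, and all 3 libraries of day 14 lay below the lowest of day 7, at 6.62. Bub1 and Bub1b, the checkpoint kinases that Bub3 carries to the kinetochore, were left at 7.5% and 12.7% on day 35.

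The 4 subunits of the chromosomal passenger complex, which corrects faulty attachments and later marks the midzone, were all lower on day 14. Birc5, the survivin subunit, read 6.05, 6.92 and 7.18 RPKM on day 3 and a higher 7.79, 9.13 and 10.2 on day 7. The 2 days did not overlap, but the difference did not pass the test. On day 35 it read 0.968, 0.134 and 0.234 (−3.03 ± 0.35, limma adjusted p = 3.3e-07). Cdca8, the borealin subunit, changed least, from 1.07, 1.42 and 0.886 RPKM to 0.218, 0 and 0.317 (−1.27 ± 0.27, limma adjusted p = 0.00046), and its call on day 35 was lost with centred libraries (adjusted p = 0.23). Aurkb, the kinase of the complex, was left at 5.0% of day 3 and Incenp, its scaffold, at 14.0%.

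Among the 8 spindle genes, Aurka went its own way early. This kinase of spindle poles read 8.98, 9.24 and 11.2 RPKM on day 3 and 16.6, 19.1 and 21.4 on day 7, with no overlap (+0.92, limma adjusted p = 0.023). That call was lost when any of 4 of these 6 libraries was left out, with adjusted p up to 0.084. On day 14 Aurka was back at 4.91, 7.45 and 8.68 RPKM, below each day 3 library but not past the test against them (−0.49, limma adjusted p = 0.22), and on day 35 it was at 2.91, 1.93 and 0.99. Its fall from day 7 to day 14 did pass (−1.41 ± 0.29, limma adjusted p = 0.0062). Ckap2, a microtubule-stabilizing protein of the spindle, had the highest level of all 48 genes: 39.2, 52.2 and 51.2 RPKM on day 3, 47.8, 56.0 and 65.4 on day 7, 15.5, 28.2 and 26.7 on day 14, and 6.21, 3.69 and 3.70 on day 35. Its change of −3.28 ± 0.27 (limma adjusted p = 3.9e-09) was the largest of the group on the log2 scale. Hmmr, a spindle protein that binds TPX2, changed least on the log2 scale (−1.51 ± 0.19, limma adjusted p = 1.4e-06), with 11.1% left, while Aurka kept 19.8%. Kif11, the motor that pushes the spindle poles apart, was near the floor throughout, at 1.13, 0.793 and 0.76 RPKM on day 3 and 0.015, 0.033 and 0 on day 35.

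The 4 genes of the anaphase trigger differed in how much was left on day 35, from 8.0% for Cdc20 to 27.8% for Pttg1. Cdc20 was lower on day 14 and on day 35 (−2.37 ± 0.22, limma adjusted p = 2.6e-08), and Espl1, the separase, was left at 8.3%. Pttg1, the securin that holds separase inactive, kept a higher share: 9.49, 15.1 and 12.6 RPKM on day 3, 4.75, 10.4 and 10.7 on day 14, 5.02, 9.48 and 8.46 on day 21, and 3.06, 5.03 and 2.26 on day 35. Days 3 and 14 overlapped, and neither day 14 nor day 21 passed the test against day 3 (limma adjusted p = 0.21 on day 14). Its day 35 change was −1.75 ± 0.32 (limma adjusted p = 0.00011). Ube2c, the ubiquitin-conjugating enzyme of the anaphase-promoting complex, was low and uneven, with 0.409, 1.34 and 1.76 RPKM on day 3 and 0.088, 0.487 and 0.085 on day 35, which overlapped. It did not pass the test on day 14 and had the smallest log2 change of the 44 members on day 35 (−1.16 ± 0.28, limma adjusted p = 0.0012), a call that was lost with centred libraries (adjusted p = 0.35).

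Of the 6 midzone and cytokinesis genes, the 4 tested were lower on day 14 and after, with a median of −2.39 on day 35. Kif20a, a kinesin of the central spindle, had the highest level, 8.51, 9.13 and 8.69 RPKM on day 3 and 1.32, 0.711 and 0.432 on day 35. These values are sums over the 3 rows of its symbol, whereas Anln has 1 row, so the rank may depend on the summing. Anln, the anillin scaffold of the contractile ring, went down early: 8.59, 6.70 and 7.16 RPKM on day 3, 5.28, 3.78 and 4.35 on day 7, 2.41, 2.74 and 1.90 on day 14, 1.10, 1.02 and 0.80 on day 21, and 0.75, 0.47 and 0.53 on day 35. No library of 1 day overlapped the next up to day 21, and Anln was the single tested member called lower on day 7 (−0.69, limma adjusted p = 0.016), a call lost without any of 3 of the 6 libraries (adjusted p up to 0.088). Kif11 and Kif4, which were not tested, stood at 54.2% and 54.5% of day 3 on day 7, below Anln at 59.7%. The change of Anln to day 35 was −2.88 ± 0.20 (limma adjusted p = 5.8e-10). Racgap1, the RhoA regulator of the centralspindlin complex, changed least on the log2 scale (−1.59 ± 0.20, limma adjusted p = 1.3e-06). By percent left it lost more than Kif20a or Anln, at 5.0% against 9.3% and 7.8%. Prc1, which bundles antiparallel microtubules, read 1.24, 1.61 and 1.32 RPKM on day 3 and was listed at 0 in each day 35 library. Ect2, which activates RhoA at the cleavage furrow, and the kinesins Kif23 and Kif4 stayed under the filter and were at 0.017, 0.047 and 0.072 RPKM on average on day 35.

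Other genes of the cell cycle were read from lists of named genes, with the same filter. Where a listed gene passed it only with days 3 and 7 counted, its being lower later is partly fixed by the filter. The lists were not split by this. Of 35 further mitotic genes tested, 26 were lower on day 14 than on day 7, where 2.47% of all genes were, among them Cdca2 (−1.51), Kif18b (−1.09) and Kif14 (−1.30), with limma adjusted p of 0.00045 to 0.00074. On day 35, 34 of 35 were lower than on day 3, where 52.1% of all genes were, led by Pkmyt1, an inhibitory kinase of CDK1 (−3.12, limma adjusted p = 5.6e-11), and Spag5, a spindle protein (−2.75). Cks2, a small CDK-binding subunit, did not pass (−1.31, limma adjusted p = 0.055). Of 36 DNA replication and S phase genes, 13 were lower on day 14 than on day 7, led by Chaf1b, a histone chaperone subunit (−1.40, limma adjusted p = 0.00066), and Uhrf1 (−1.46). All 36 were lower on day 35 than on day 3 (all genes 52.1%), and Gins2, of the replicative helicase, changed by −2.80 and Rfc5, of the clamp loader, by −2.75. The median changes on day 35 were −2.04 and −1.88 for these lists, beside −2.13 for the mitosis genes and −0.68 for all genes.

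Of 13 core subunits of the anaphase-promoting complex, 0 were lower on day 14 than on day 3. On day 35 9 of 13 were lower, where 52.1% of all genes were, led by Cdc16 (−1.44, limma adjusted p = 9.8e-06), but the count went to 1 lower and 2 higher with centred libraries. All 9 cohesin and condensin II genes tested were lower on day 35 (all genes 52.1%), led by Ncapg2 of condensin II (−2.12) and Smc3 of cohesin (−1.85), and 5 of 9 with centred libraries. Among the 3 G1 cyclins the members of the list parted. Ccnd1 was higher on day 7 (+1.47, limma adjusted p = 3.1e-05) and on day 35 (+0.88, adjusted p = 0.001), and Ccnd2 likewise (+1.03 and +1.08), while Ccnd3 was lower on day 35 (−0.81, limma adjusted p = 0.0057). That value of Ccnd3 lies near the all-gene median of −0.68, and in vehicle cells Ccnd3 did not pass the test (−0.13, edgeR adjusted p = 0.96). Cdk2, a kinase of late G1 and S phase, was lower as well (−2.16). Among 10 CDK inhibitors and pocket proteins, Cdkn1a, which encodes the p21 inhibitor, was higher on day 7 (+1.11, limma adjusted p = 0.0037). By day 35, 7 of the 10 were lower, where 52.1% of all genes were, so the count lies near the background. The changes were led by the inhibitor Cdkn2c (−3.15) and the pocket protein Rbl1 (−1.88). Rbl2, the pocket protein of the DREAM complex, was lower too, but not with centred libraries (adjusted p = 0.32). Of 6 DREAM and MMB partners tested, 4 were lower on day 35, near the 52.1% of all genes, led by Tfdp1, a partner of E2F factors (−2.36).

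From day 7 to day 14, where 35 of 44 mitosis genes fell, limma called 0 of 8 osteoblast markers, and the summed RPKM of these markers was 149 to 171 on day 7 and 148 to 161 on day 14. From day 14 to day 21 4 of 8 rose, and from day 21 to day 28 5 of 8 rose, to summed values of 598 to 632, while 1 and 0 mitosis genes fell in these steps. Whether the mitosis genes and the markers differ in timing was not tested.

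**Figure D3:**
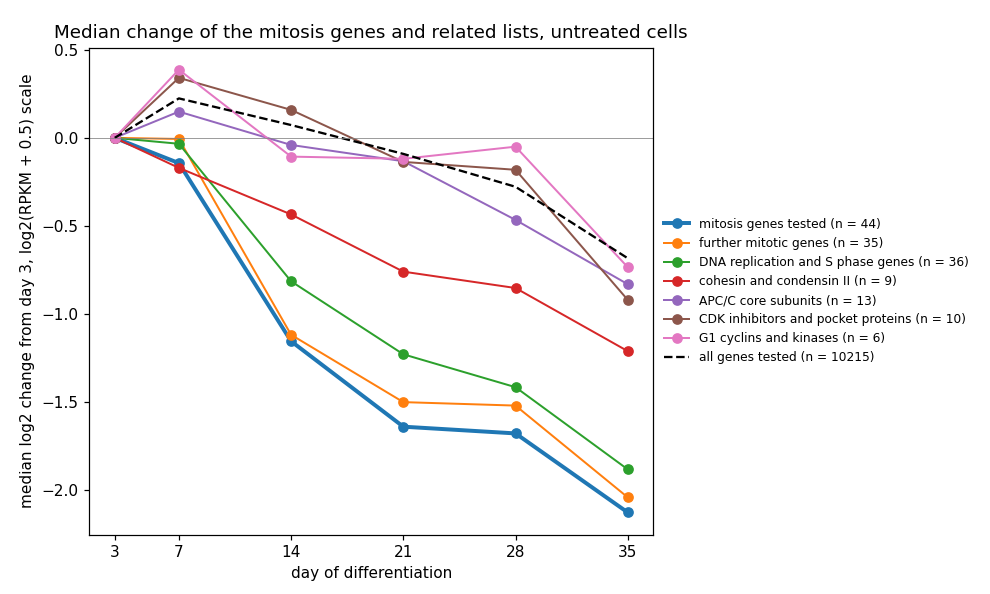
Median log2 change of each gene list (vertical axis, log2(RPKM + 0.5) scale) on each untreated day against day 3 (horizontal axis), with the dashed line for all genes tested. Mitosis, further mitotic and replication genes end lowest, at −2.13, −2.04 and −1.88 on day 35, while the anaphase-promoting complex (APC/C) lies near the all-gene line, at −0.83 beside −0.68.

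The vehicle cells of the hormone experiment give the same contrast of days in other libraries, made with another kit and read as whole-number counts. Levels are counts scaled to library size (CPM) scaled by the TMM method, and tests used the quasi-likelihood method of edgeR over 20055 genes. Several rows carry 1 symbol in the files for 8 members, and these read low there: Tpx2 had 0 counts in all 12 libraries, Nusap1 had 8, Ect2 had 147 and Bub1 had 297. Tpx2 and Nusap1 could not be tested, which left 46 members. Of these, 44 were lower at day 35 than at day 3 (background 14.5%) and 0 were higher (15.5%), with a median log2 change of −3.54 against +0.17 for all genes. The summed CPM of the 48 genes averaged 5510 ± 415 (SD, n = 3) in vehicle cells at day 3 and was 682, 563 and 627 at day 35. The days were far apart.

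Over the 40 members with 1 row, vehicle cells kept a median of 8.58% of the day 3 CPM at day 35, from 2.59% for Ube2c to 83.0% for Bub3. In the untreated cells 9.03% was left over all 48, but these percents are on unlike scales. The median log2 change of all genes was +0.17 in the TMM-scaled vehicle fit. It was −0.68 in the untreated fit, where libraries were not centred. Mki67 read 545, 764 and 781 CPM in vehicle cells at day 3 and 47.8, 29.7 and 26.8 at day 35 (−4.32 ± 0.26, edgeR adjusted p = 1.1e-08). Cdk1 read 73.3, 63.6 and 60.2 CPM and then 8.89, 7.18 and 8.75 (−2.99 ± 0.29, edgeR adjusted p = 1.6e-06). Kif11, too low to test in the untreated cells, read 344, 213 and 297 CPM and then 27.4, 20.6 and 23.6 (−3.58 ± 0.22, edgeR adjusted p = 1.1e-08). In each of these genes the days did not overlap. Kif4 and Kif23, also under the untreated filter, fell by 3.61 and 3.95 on the log2 scale.

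Bub3 again differed from the other members. It read 104, 68.2 and 81.7 CPM in vehicle cells at day 3 and 70.6, 70.0 and 70.4 at day 35, groups that overlapped (−0.27 ± 0.18, edgeR adjusted p = 0.28), and in hormone-treated cells it averaged 63.4 ± 8.2 CPM (SD, n = 3) at day 3 and 69.3 ± 13.2 at day 35 (+0.13, edgeR adjusted p = 0.63). Here its day 35 level was not distinguishable from day 3 within the spread, whereas in the untreated cells it was lower. Mad2l1 was the member with the next smallest loss, 92.8, 95.9 and 90.4 CPM against 30.6, 29.0 and 35.2 (−1.56 ± 0.15, edgeR adjusted p = 1.7e-06). Smc4 followed with 430, 307 and 417 CPM against 98.0, 84.3 and 107 (25.1% left, edgeR adjusted p = 2.8e-07), and Pttg1 with 25.1% left. At the other end, Ube2c read 8.37, 18.6 and 11.3 CPM against 0.468, 0.361 and 0.163 (−5.22 ± 0.46, edgeR adjusted p = 4.8e-07), the largest change of the members there. In the untreated cells Ube2c lay near the floor and had the smallest change on the log2(RPKM + 0.5) scale, with 18.8% left. Ect2 did not pass (−2.07 ± 1.65, edgeR adjusted p = 0.37) on 147 counts in all.

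**Figure D4:**
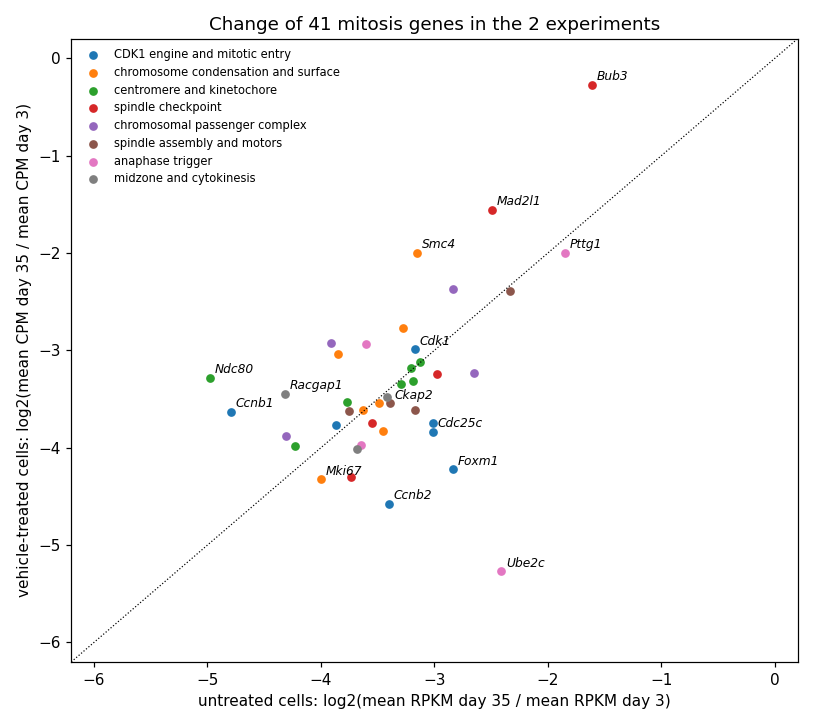
Log2 ratio of the day 35 mean to the day 3 mean of 41 mitosis genes, in untreated cells (horizontal axis, RPKM) and in vehicle cells (vertical axis, CPM). Most points lie between −2 and −5 on both axes around the dotted line of equal change, Bub3 stands alone at the upper right with the smallest loss in both, and Ube2c lies far below the line.

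Over 41 members with values in both experiments, the median log2 ratio of mean levels was −3.40 in untreated and −3.53 in vehicle cells. These medians too are on unlike scales, because the RPKM were not centred and the CPM were scaled by TMM. The ratios of single genes were only loosely alike (Pearson's r = 0.48, Spearman's rho = 0.38, over genes and not replicates). The fitted log2 changes, which carry the pseudocount in the untreated cells, were less alike (r = 0.11, rho = 0.10 over 42 members), with medians of −2.18 and −3.48. Levels at day 3 were alike to a similar degree: per kilobase, RPKM and CPM of 40 members gave r = 0.42 on the log2 scale and rho = 0.30. The ratio of RPKM to CPM per kilobase ran from 0.0152 for Kif11 to 1.09 for Cdk1. The part of library kit and of counting in these differences was not tested.

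From day 3 to day 35 in vehicle cells, 38 of 43 further mitotic genes were lower, where 14.5% of all genes were lower and 15.5% higher, among them Nek2 (−3.16), Melk (−3.75) and Mastl (−2.91), with edgeR adjusted p of 2.0e-09 to 5.2e-09. Of 37 replication genes 33 were lower, led by Mcm6 of the helicase (−2.38) and Pole, a DNA polymerase subunit (−3.12). Of 13 subunits of the anaphase-promoting complex, Cdc27 was lower, 1 call against a background of 14.5% of genes (−0.65, edgeR adjusted p = 0.0029). Of 12 cohesin and condensin II genes, 6 were lower, led by Ncapg2 (−2.95) and Ncapd3 (−2.31), and Stag2 was higher (+1.48, edgeR adjusted p = 0.021), a call lost in 6 of 21 alternatives. Ccnd1 (+1.40) and Ccnd2 (+1.15) were higher, as in the untreated cells. Cdkn2c (−2.45), Rbl1 (−1.97), Tfdp1 (−1.17) and Mybl2, a subunit of the MMB activator (−3.50, edgeR adjusted p = 0.00029), were lower.

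In hormone-treated cells the contrast of days looked alike: 44 of 46 members were lower at day 35 (background 12.9%) and 0 were higher (14.7%), with a median of −3.56 against −0.42 for all genes, and the 2 not called were again Bub3 and Ect2. The 40 members with 1 row kept a median of 8.77% of their day 3 CPM, from 3.06% for Plk1 to 109% for Bub3.

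The hormone itself moved few mitosis genes past the test. At day 3, Anln was the 1 member lower with hormone (background 9.09%) and 0 were higher (background 11.4%). It read 146, 173 and 183 CPM with vehicle and 103, 98.9 and 95.2 with 1,25(OH)2D3, without overlap (−0.76 ± 0.21, edgeR adjusted p = 0.024). The summed CPM of the 48 genes was 4654, 4493 and 4690 with hormone, each below all 3 vehicle libraries. Of the 46 members, 41 had a negative value, with a median of −0.25 against +0.26 for all genes. An unadjusted p under 0.05 was met by 7 of them. The share of all genes at that threshold was not taken, so this count has no background beside it. The direction of these small values depended on the scaling: with library totals and no TMM factor, an alternative added after seeing the data, 34 of 46 were positive, with a median of +0.15 against +0.65 for all genes, and Anln did not pass (adjusted p = 0.25). TMM factors were 0.909 to 0.959 in vehicle and 1.18 to 1.29 in hormone libraries of day 3. The hormone libraries of day 3 also had more reads over 1100 olfactory receptor genes, which these cells should not express, at 0.145 to 0.212 CPM per kilobase against 0.0116 to 0.0159. The third of them had adipocyte markers at a sum of 213 CPM, against 40.7 and 45.9 in the other hormone libraries of day 3 and 25.6 to 39.0 in the vehicle ones. The part of this background and of these markers in the result was not tested. The count of members lower was 0 without the third hormone library of day 3, 5 without the first vehicle library of day 3, and 9 and 10 without the first or the second hormone library of day 35, which enter through the shared estimate of spread. It was 4 without the second vehicle or the third hormone library of day 35, and 2 without the third vehicle library of day 3 or of day 35.

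At day 35, Racgap1 was the 1 member lower with hormone (background 2.14%), and 0 were higher (background 2.41%). It read 6.96, 4.26 and 2.74 CPM with vehicle and 1.41, 1.18 and 1.53 with hormone, without overlap (−1.76 ± 0.34, edgeR adjusted p = 0.0059), and passed under all 22 alternatives. The second hormone library of this group had a background over olfactory receptor genes of 0.123 CPM per kilobase. Of the 46 members, 39 had a negative value, with a median of −0.34 against +0.02 for all genes. At an unadjusted p under 0.05 there were 14 members, 13 of them negative. The other was Ube2c (+1.24, edgeR adjusted p = 0.17), which read 0.468, 0.361 and 0.163 CPM with vehicle and 0.706, 1.18 and 0.551 with hormone. These levels are a few percent of those at day 3. The share of all genes at the unadjusted threshold was not taken, so the count of 14 has no background beside it. The summed CPM of the 48 genes was 639, 450 and 538 with hormone and 682, 563 and 627 with vehicle, which overlapped. Without the first hormone library of day 35 the count of members lower was 4, and it was 2 without the second or the third.

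**Figure D5:**
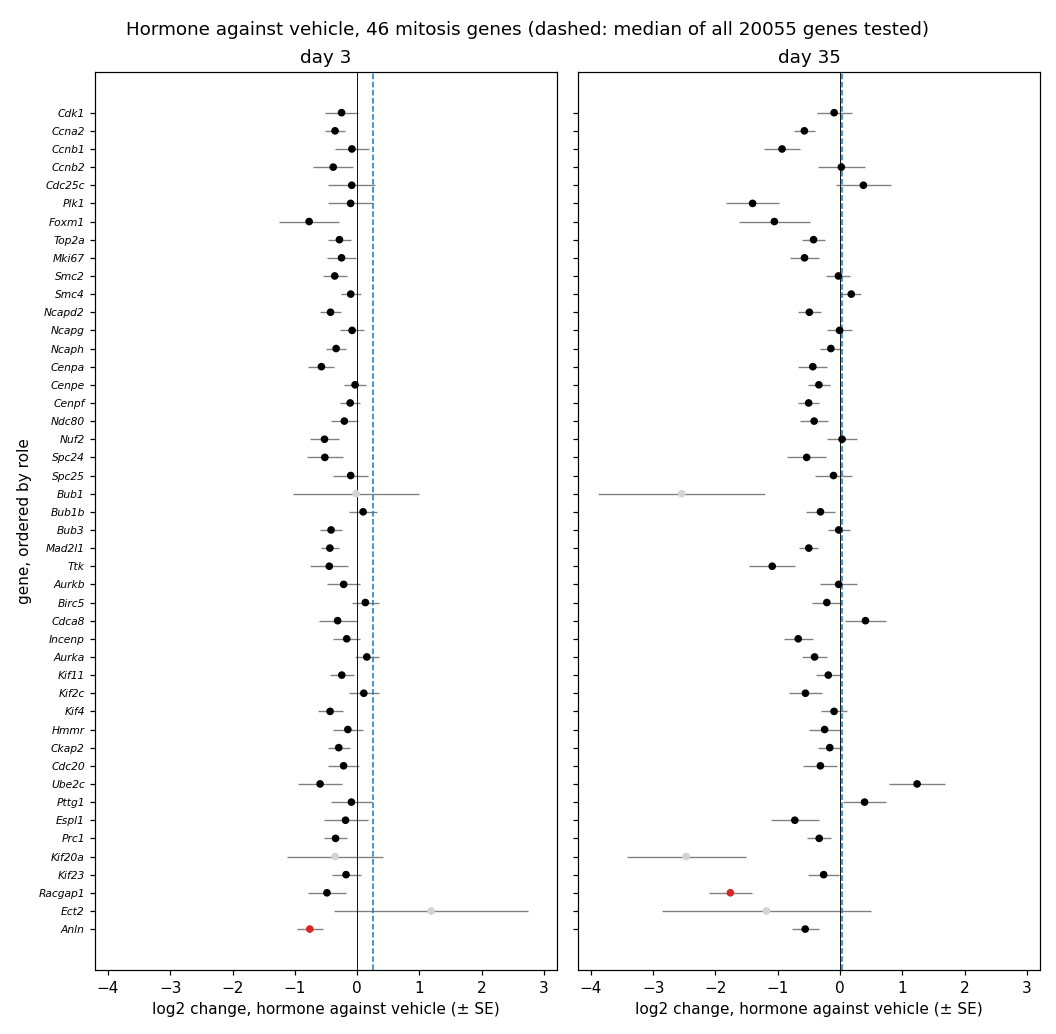
Log2 change with 1,25(OH)2D3 against vehicle (horizontal axis, ± SE, n = 3 and 3) of 46 mitosis genes at day 3 and at day 35. Most points lie a little below 0, the dashed line is the median of all genes, Anln at day 3 and Racgap1 at day 35 are the points past the test, and the wide bars in light grey are genes with few counts.

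The difference between both hormone responses was tested as an interaction term. edgeR called 0 members lower (background 2.94%) and 0 higher (background 4.14%). Ccnb1, Plk1, Ube2c and Racgap1 had an unadjusted p under 0.05, a threshold at which the share of all genes was not taken. DESeq2 called 0 lower and 1 higher, which was Ube2c.

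Around the members, the hormone lowered some replication genes in day 35 cells: Mcm2, Mcm3, Pold1, Pole, Rrm2 and Chaf1a, or 6 of 37, with 0 higher, where 2.14% of all genes were lower and 2.41% higher. Pold1, a DNA polymerase subunit, changed by −1.17 (edgeR adjusted p = 0.0095) and Mcm3, of the helicase, by −0.66 (edgeR adjusted p = 0.012). Each of the 6 lost its call in at least 3 of the 22 alternatives, with adjusted p up to 0.20. Spag5 (−0.89) and Plk4, the kinase of centriole duplication (−0.55), were lower among 43 further mitotic genes, against the same 2.14%, with adjusted p up to 0.098 and 0.20 over the alternatives. Cdk6, a G1 kinase, was lower (−0.82, edgeR adjusted p = 0.017), with adjusted p up to 0.10. Cdkn2b, the p15 inhibitor of CDK4 and CDK6, was higher: 116, 104 and 121 CPM with vehicle and 234, 173 and 207 with hormone, without overlap (+0.85 ± 0.14, edgeR adjusted p = 0.0013). Cdkn2b passed under all 22 alternatives. At day 3, Ccnd1 (−0.56) and Cdk6 (−0.72) were lower with hormone under TMM scaling but not with library totals (adjusted p = 0.33 and 0.22), and the same held for Rrm2, Pcna and Mcm6.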

How the data were processed

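Total RNA depleted of ribosomal RNA was sequenced in 30 libraries of IDG-SW3 cells. The untreated files hold RPKM values made by the authors, and the hormone files hold whole-number counts, as deposited, although their names say RPKM. Reads were mapped with TopHat to mm9, per the submitters' processing notes, and how RPKM and counts were computed is not given in the sources used here. Rows of 1 symbol were summed (30901 and 30795 rows, 25520 and 25410 symbols). RPKM were tested with limma 3.58.1 in R 4.3.3 on log2(RPKM + 0.5) over all 6 days (12 residual degrees of freedom), keeping genes with 1 RPKM in 3 libraries. Counts were tested with the quasi-likelihood method of edgeR 4.0.16 (TMM, filterByExpr with a minimum count of 10, 4 groups, 8 residual degrees of freedom). P-values were adjusted by the method of Benjamini and Hochberg over all genes of a comparison, with a threshold of 0.05. Error terms are SE for fold changes and SD for levels.

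Alternatives were other scalings, pseudocounts and filters, DESeq2 1.42.0, a replicate block, a sequencing run covariate, fits of the compared groups only, subtraction of background and leaving out each library. Added after seeing the data were the highest row of a symbol, symbols with 1 row, replicate 1 alone and library totals without TMM. Deviations of same-numbered libraries correlated at 0.160 to 0.617 in all comparisons among days 3 to 28. These correlations did not pass 0.1 in every pair with day 35 or with the hormone. The main fits had no term for replicate number, so their p-values ignore this pairing. The replicate block was run as an alternative only. Named members are those of highest day 3 level, largest and smallest day 35 change in each role, and those whose call differs from most of the role. Other genes are examples from lists. The members and lists were chosen with earlier results of these data known. Sequences are from RefSeq (GRCm38.p6), with no coordinates carried over from mm9. Promoter entries were found for 39 members.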

Additional observations from a re-analysis of the deposited data

Results flagged for a closer look

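The response to 1,25(OH)2D3 differed between day 35 and day 3 in 4 genes of the cell cycle lists, none of them among the 48 mitosis genes, by the interaction term of edgeR's quasi-likelihood test. The value is the response at day 35 minus that at day 3, on the log2 scale.

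Cdkn2b differed by +0.71 ± 0.192 (SE, edgeR adjusted p = 0.037). It read 146, 136 and 139 CPM with vehicle and 156, 159 and 146 with hormone at day 3, and 116, 104 and 121 against 234, 173 and 207 at day 35. The call was lost without any 1 of the 3 hormone libraries of day 3, with a replicate block and with library totals (adjusted p up to 0.17).

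Zwint, a kinetochore protein, differed by +0.90 ± 0.204 (edgeR adjusted p = 0.014). It read 86.5, 82.3 and 73.4 CPM with vehicle and 49.9, 53.3 and 55.9 with hormone at day 3, and 34.8, 28.4 and 30.2 against 43.1, 33.4 and 38.2 at day 35. The call was lost with library totals (adjusted p = 0.081).

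Gins3, of the replicative helicase, differed by −0.93 ± 0.233 (edgeR adjusted p = 0.025). It averaged 28.1 ± 2.9 CPM (SD, n = 3) with vehicle and 45.1 ± 3.1 with hormone at day 3, and 15.7 ± 1.6 against 13.2 ± 2.3 at day 35. The call was lost without any 1 of 8 of the 12 libraries (adjusted p up to 0.10).

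Kif18b, a kinesin of the spindle, differed by −1.54 ± 0.421 (edgeR adjusted p = 0.039). It averaged 10.2 ± 2.0 CPM (SD, n = 3) with vehicle and 14.0 ± 1.3 with hormone at day 3, and 0.92 ± 0.37 against 0.44 ± 0.078 at day 35. The call was lost without any 1 of 9 of the 12 libraries (adjusted p up to 0.18), and without a filter on low counts.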

How the results depend on the processing

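Counts of members lower than day 3 on days 14 to 35, and at day 35 in vehicle or hormone cells, stayed within 1.5 times under every alternative run. Members lower from day 21 to day 28 stayed at 0 throughout. So did members higher at day 35 than at day 3 in vehicle or hormone cells, and higher with hormone against vehicle at day 35. The remaining counts moved, and the cause was not tested. On day 7 against day 3 (1 lower), the count was 6 with centred libraries, 7 with quantile normalization, 7 rescaled without rRNA, 2 with a pseudocount of 1 and 3 without a filter. From day 7 to day 14 (35) it was 23 with a pseudocount of 0.1. From day 14 to day 21 (1) it was 0 centred, 0 with quantile normalization, 2 rescaled without rRNA, 2 with the replicate block and 3 with the run as covariate. From day 28 to day 35 (14) it was 6 centred, 4 with quantile normalization, 7 with a pseudocount of 1, 7 without a filter and 0 with the run as covariate. In that last fit day 35 rests on its first library.

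For hormone against vehicle at day 3 (1 lower), it was 0 with upper-quartile scaling, 2 with DESeq2, 5 without a filter and 0 with library totals, which made 1 higher. At day 35 (1 lower) it was 6 with DESeq2, 2 with background subtracted, 2 with the replicate block and 2 with library totals. For the difference of responses (0 and 0), library totals gave 3 lower, DESeq2 1 higher and no filter 1 higher.

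Leaving out 1 library gave 0 to 2 for day 7, 21 to 35 from day 7 to day 14, 0 to 2 from day 14 to day 21, 1 to 17 from day 28 to day 35, 0 to 10 for the hormone at day 3, 1 to 4 at day 35, and 0 to 2 lower and 0 to 1 higher for the difference. Other ranges stayed within 1.5 times. Of 10839 single-gene values with a library left out, 277 lost a call, 64 gained one and 0 reversed. Of 6876 under other alternatives, 151 lost a call, 63 gained one and 0 reversed. A gene called under neither setting was counted as kept, whatever its sign. The replicate block changed no count other than those given by over 1.5 times. Depth limits members near 1 RPKM, where 1 read in a kilobase is worth up to 0.157 RPKM.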
